A study of Mus musculus with 2 samples.

Results

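The 43 genes described here encode the machinery that makes ribosomes in the nucleolus, and were chosen by name and function from the 15364 genes of the deposited table. The choice was made with earlier results of these data known. All 43 were found there. They fall into 7 roles: 3 proteins of the box C/D and 4 of the box H/ACA small nucleolar ribonucleoproteins (snoRNPs), 4 nucleolar chaperones and phosphoproteins, 6 genes of RNA polymerase I and its factors, 12 of small subunit and 12 of large subunit maturation, and 2 of RNA unwinding and decay. They were followed in 640 single neural stem cells (NSCs) cultured from hippocampi of 6-week-old C57BL6/J males. Quiescent NSCs were kept in medium with 50 ng/mL of the growth arrest signal BMP-4 and with FGF-2, but without EGF, and counted as quiescent after 3 days. Cells leaving quiescence for 24 h or 48 h were quiescent NSCs moved to the activation medium with noggin at 0.5 µg/mL, which blocks BMP-4. Activated NSCs grew in that medium, with 20 ng/mL each of FGF-2 and EGF. Each culture was sorted into 4 gates of rising autofluorescence, which comes from a cell's own molecules, and the series asks how it relates to the activation state.

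A ribosome begins as a long precursor RNA copied from ribosomal DNA by RNA polymerase I. In the nucleolus, snoRNPs modify this precursor at sites set by their guide RNAs, helicases and GTPases refold it, the exosome trims it, and assembly factors join ribosomal proteins to it to form the small and the large subunit. Growing and dividing cells need many ribosomes, MYC is a known activator of many of these genes, and adult neural stem cells at rest are known for low protein synthesis.

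The start regions of the genes are shown first, since members that share a pattern may share letters there and since MYC with its partner MAX binds the letters CACGTG. RefSeq held a promoter window, 250 bases before to 50 bases after the annotated start, for 36 of the 43 genes; Fbl, Npm1, Gnl2, Rrs1, Bop1, Rrp12 and Dcaf13 had none. CACGTG, which reads the same on both strands, was in a window of 7 of the 36 genes (19.4%): Imp4, Nop2, Ltv1, Pes1, Mybbp1a, Tsr1 and Wdr43. It was in a window of 8.09% of all 27025 genes of the table. Counted by window, it was in 7.15% of all windows. It was in 9.20% of windows whose percent of G and C lay within the interquartile range of the members' own. Shares of windows are not like the 19.4%, which is a share of genes, and the members' 36 genes had 44 windows. The members' windows had a median of 57.8% G or C, against 52.7% over all windows. The window of Nop56, the member with the highest log2 ratio between activated and quiescent cells below, is shown with those of the 4 genes with CACGTG that had the most counts. They are printed 5′ to 3′ on the gene's own strand (plus for all 5; build GRCm38.p6; Nop56 at chr2:130274162-130274461, Mybbp1a at chr11:72441077-72441376, Nop2 at chr6:125131633-125131932, Wdr43 at chr17:71615965-71616264, Pes1 at chr11:3963725-3964024), with CACGTG in capitals.
Nop56: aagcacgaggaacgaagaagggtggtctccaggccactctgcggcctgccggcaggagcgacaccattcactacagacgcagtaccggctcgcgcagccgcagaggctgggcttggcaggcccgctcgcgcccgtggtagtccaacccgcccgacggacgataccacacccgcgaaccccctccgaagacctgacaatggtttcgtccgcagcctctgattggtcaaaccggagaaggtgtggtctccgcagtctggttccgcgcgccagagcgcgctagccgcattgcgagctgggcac
Mybbp1a: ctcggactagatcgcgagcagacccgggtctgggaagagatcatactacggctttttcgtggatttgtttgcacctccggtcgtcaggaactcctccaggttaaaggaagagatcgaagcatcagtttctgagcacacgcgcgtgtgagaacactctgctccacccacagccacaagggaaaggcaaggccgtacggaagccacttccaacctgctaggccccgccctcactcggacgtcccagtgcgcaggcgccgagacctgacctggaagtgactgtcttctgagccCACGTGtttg
Nop2: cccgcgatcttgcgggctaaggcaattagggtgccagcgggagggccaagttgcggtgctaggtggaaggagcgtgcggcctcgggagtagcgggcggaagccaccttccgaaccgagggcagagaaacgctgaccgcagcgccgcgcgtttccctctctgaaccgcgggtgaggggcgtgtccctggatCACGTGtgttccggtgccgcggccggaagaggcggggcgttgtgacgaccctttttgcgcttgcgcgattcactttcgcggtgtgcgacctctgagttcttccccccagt
Wdr43: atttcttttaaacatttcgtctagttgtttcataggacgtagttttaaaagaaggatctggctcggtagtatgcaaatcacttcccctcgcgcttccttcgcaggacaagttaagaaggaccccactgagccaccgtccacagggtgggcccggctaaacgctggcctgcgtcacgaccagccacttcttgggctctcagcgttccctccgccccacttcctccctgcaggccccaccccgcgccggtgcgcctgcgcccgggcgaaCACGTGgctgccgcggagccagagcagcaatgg
Pes1: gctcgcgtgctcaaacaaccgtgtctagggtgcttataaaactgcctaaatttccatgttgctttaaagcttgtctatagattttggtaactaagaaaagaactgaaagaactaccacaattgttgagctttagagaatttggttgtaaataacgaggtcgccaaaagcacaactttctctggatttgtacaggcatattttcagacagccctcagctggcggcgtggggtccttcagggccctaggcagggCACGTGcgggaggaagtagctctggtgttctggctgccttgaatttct
In Nop2 the motif began 60 bases before the annotated start, and in the other 3 it lay after the start. The letters are a description of these windows and do not show that a factor binds there.

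The culture of each condition was sorted once, so a difference between conditions has no replicate check, carries no p-value, and is given with counting intervals only. Quiescent and 24 h cells shared a plate, as did 48 h and activated cells, so plate and state cannot be told apart except between cultures of the same plate. The cultures held 174 quiescent, 151 24 h, 151 48 h and 164 activated cells with total counts of 3046628 to 6563487, and no cell barcode name was shared between plates. The submitters' description gives 47 cells per condition, fewer than the per-cell table holds. Markers of neural stem and progenitor cells (7 of 7 in the table) summed to 4374 to 6768 CPM per culture (counts divided by the culture's total and scaled to 1e+06). Microglia and endothelial markers stayed at or below 2.13 CPM and the defining genes Aif1, Cldn5 and Cdh5 were not in the table, while neuron markers summed to 5.33 to 44.9 CPM and oligodendrocyte lineage markers to 3.05 to 18.1 CPM. Astrocyte markers, several of which quiescent NSCs also express, differed between the conditions. They summed to 1094 CPM in quiescent, 1703 CPM in 24 h, 417 CPM in 48 h and 129 CPM in activated cells. Single markers went different ways. From quiescent to 24 h cells Slc1a2 rose from 422 to 1265 CPM and Aldh1l1 from 56.9 to 82.7 CPM. Aqp4 (244 to 106 CPM), Gfap (72.5 to 17.4 CPM) and S100b (299 to 232 CPM) fell. Aldh1l1 was highest in activated cells (106 CPM), where the other astrocyte markers were lowest. The part of these markers in the results was not tested.

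Ribosome biogenesis genes were low in quiescent cells, had not moved as a group after 24 h of exit, were at about the middle of the range after 48 h, and were highest in activated cells. Summed over the 43 genes, they made up 1702 CPM in quiescent, 1743 CPM in 24 h, 3462 CPM in 48 h and 5439 CPM in activated cells. All 43 genes had more CPM in activated than in 48 h cells, and more in 48 h cells than in both 24 h and quiescent cells. Activated cells had 5439 CPM against 1702 CPM in quiescent cells, a ratio of 3.20 with an exact 95% counting interval of 3.12 to 3.27. Leaving out Npm1 and Ncl, which had the most counts, gave 3.13. Set against the spike-in RNA of the same wells, the ratio was 4.95, since activated cells also held 1.55 times as many counts of all genes per spike-in count.

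**Figure D1:**
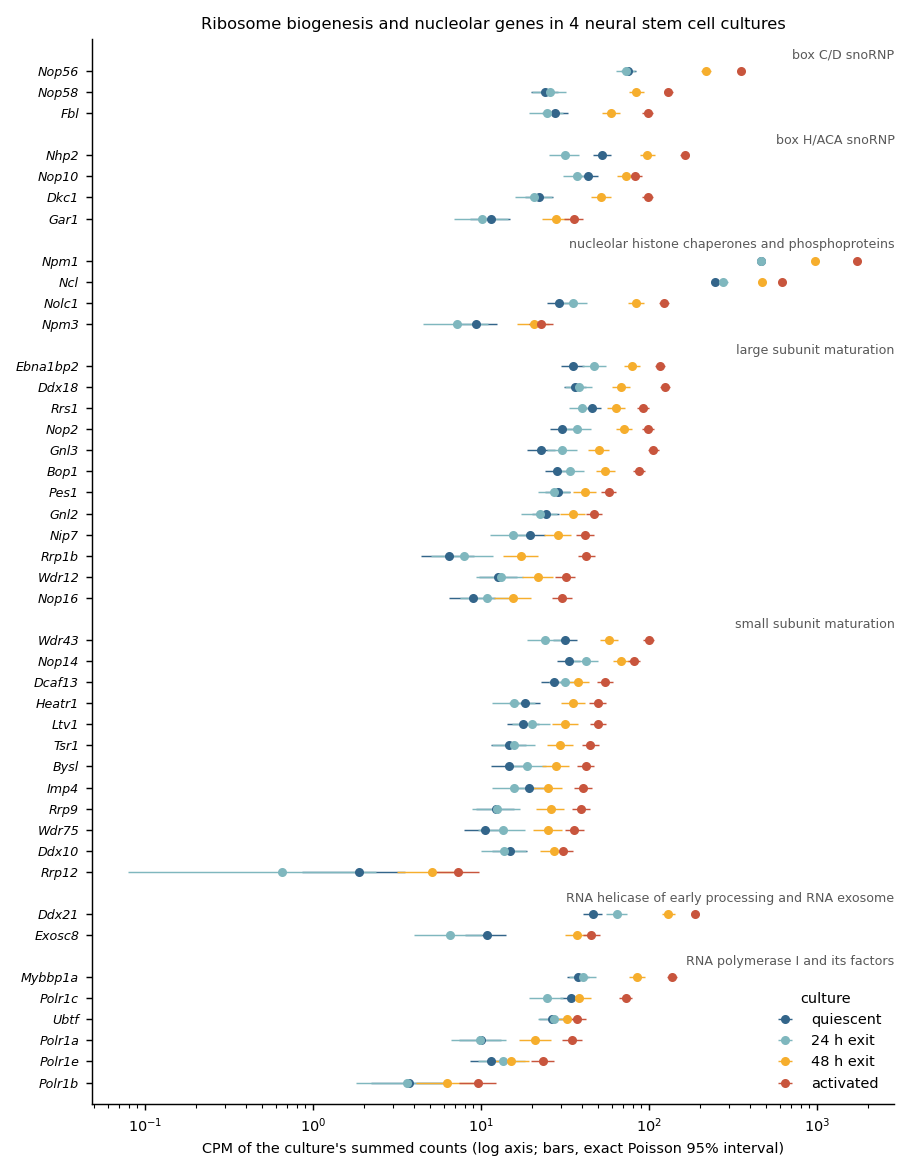
Level of each of the 43 genes in the 4 cultures, as CPM of the culture's summed counts on a log axis, with exact Poisson 95% intervals as bars and genes grouped by role. The activated point lies to the right of the 48 h point for each gene, and the quiescent and 24 h points lie close together, as for Npm1 with 464 CPM in both.

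Between activated and quiescent cells, 40 of the 43 genes were higher by at least 1.5-fold on the log2(CPM + 10) scale, a step that 19.8% of all 11011 genes with enough counts took upward and 14.3% took downward. None was lower, and for all 43 the counting interval of the CPM ratio lay above 1. The median log2 ratio of the genes was 1.15, against 0.07 over all genes. Rrp12 (0.54), Polr1b (0.51) and Ubtf (0.38) stayed under 1.5-fold on this scale, where the 10 CPM added shrink the ratios of genes with low CPM. With 1 CPM added instead, 42 of the 43 genes were higher by 1.5-fold.

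The box C/D snoRNP genes, whose proteins carry out and support 2′-O-methylation of the precursor RNA, had the highest median log2 ratio of the 7 roles, 2.04. Nop56, a core scaffold protein of the particle, had 75.4 CPM in quiescent, 72.6 CPM in 24 h, 219 CPM in 48 h and 352 CPM in activated cells. Its level in activated cells was 4.67 times that in quiescent cells (4.18 to 5.23). Nop58, its paralog in the same core, had 24.1, 25.6, 84.2 and 131 CPM in quiescent, 24 h, 48 h and activated cells, and the activated level was 5.42 times the quiescent level (4.46 to 6.64). Both genes were flat over the first 24 h and stood apart from both earlier cultures by 48 h. Fbl, the methyltransferase fibrillarin, had 27.6, 24.6, 59.4 and 98.2 CPM in the same order.

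The box H/ACA snoRNP genes, whose proteins convert uridine to pseudouridine, had a median log2 ratio of 1.28 between activated and quiescent cells. Nhp2, a core protein of the particle, was the only member past 1.5-fold at 24 h on the log2(CPM + 10) scale and was lower there. It had 52.8 CPM in quiescent, 31.5 CPM in 24 h, 97.7 CPM in 48 h and 163 CPM in activated cells. Nop10, its small partner, had 43.2, 37.1, 72.7 and 82.9 CPM in the same order. Dkc1, the pseudouridine synthase dyskerin, had 22.2, 20.7, 51.6 and 98.0 CPM. Gar1, another core protein, had 11.4, 10.2, 27.9 and 35.8 CPM. Nop10 and Gar1 had covered 74.4% and 67.5% of the difference between the quiescent and the activated level by 48 h, against 38.8% for Dkc1 and 40.6% for Nhp2, so genes of the same particle were at different points of the range.

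Npm1, the histone chaperone nucleophosmin of the granular outer part of the nucleolus, held 26.6% to 31.6% of all counts of the 43 genes in the 4 cultures. It had 464 CPM in quiescent, 464 CPM in 24 h, 967 CPM in 48 h and 1718 CPM in activated cells, and the activated level was 3.71 times the quiescent level (3.54 to 3.88). Npm1 has pseudogene copies, so some of its reads could belong to a near-identical copy. Ncl, the histone chaperone and RNA binding protein nucleolin, had 246 CPM in quiescent, 276 CPM in 24 h, 469 CPM in 48 h and 615 CPM in activated cells. Its activated level was 2.50 times the quiescent level (2.34 to 2.67), a smaller step than that of Npm1. Nolc1, a phosphoprotein that accompanies snoRNPs, had 29.3, 35.5, 83.7 and 124 CPM, and Npm3, a small relative of Npm1, had 9.34, 7.22, 20.6 and 22.7 CPM in the same order.

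Genes of RNA polymerase I and its factors had the lowest median log2 ratio of the 7 roles, 0.77. Mybbp1a, a nucleolar protein that binds MYB and acts on ribosomal DNA transcription, had the highest ratio among them, with 37.8 CPM in quiescent, 40.4 CPM in 24 h, 85.1 CPM in 48 h and 137 CPM in activated cells. Polr1c, a subunit shared by RNA polymerases I and III, had 34.5, 24.6, 38.5 and 72.7 CPM in the same order. Ubtf, the factor that keeps ribosomal genes open for polymerase I, had 26.4, 27.2, 32.5 and 37.2 CPM, and its activated level was 1.41 times the quiescent level (1.13 to 1.76), the smallest ratio of the 43. Polr1a, the largest subunit of the enzyme, had 9.97, 9.85, 21.1 and 34.9 CPM. Its partner subunit Polr1b had 3.74, 3.61, 6.30 and 9.60 CPM, and Polr1e, another subunit, had 11.4, 13.5, 15.0 and 23.3 CPM. Rn45s, the ribosomal RNA precursor that this enzyme makes, was not higher with them: it had 72711 CPM in activated against 77128 CPM in quiescent cells. Precursor RNA carries no long poly(A) tail, so its count in a poly(A) library does not measure how much of it is made.

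In small subunit maturation, all 12 genes were higher in activated than in quiescent cells and 11 passed 1.5-fold. Wdr43, part of a complex that binds the precursor as it is made, had 31.8 CPM in quiescent, 24.0 CPM in 24 h, 58.0 CPM in 48 h and 99.4 CPM in activated cells. Nop14, a factor of the early small subunit precursor, had 33.4, 42.0, 68.4 and 81.4 CPM in the same order and had covered 72.8% of the difference by 48 h. The other 10 genes (Dcaf13, Heatr1, Ltv1, Tsr1, Bysl, Imp4, Rrp9, Wdr75, Ddx10 and Rrp12) had log2 ratios between 0.54 for Rrp12 and 1.16 for Wdr75.

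In large subunit maturation, all 12 genes passed 1.5-fold between activated and quiescent cells, with a median log2 ratio of 1.21. Ebna1bp2, a factor of the early large subunit precursor, had 35.1 CPM in quiescent, 47.3 CPM in 24 h, 78.8 CPM in 48 h and 117 CPM in activated cells. Ddx18, an RNA helicase, had 36.3, 38.1, 68.1 and 124 CPM in the same order. Gnl3, the GTP binding protein nucleostemin first known from stem cells, had 22.8, 30.5, 50.2 and 106 CPM. Pes1, Bop1 and Wdr12, which form the PeBoW complex, had log2 ratios of 0.80, 1.33 and 0.88. Rrp1b, whose relative in yeast acts in large subunit maturation, had 42.4 CPM in activated against 6.44 CPM in quiescent cells, 6.58 times as many (4.53 to 9.87). The other 5 genes (Gnl2, Nip7, Rrs1, Nop16 and Nop2) had log2 ratios between 0.74 for Gnl2 and 1.42 for Nop2.

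Ddx21, a helicase that acts on both polymerase I transcription and precursor processing, had 46.1 CPM in quiescent, 64.3 CPM in 24 h, 130 CPM in 48 h and 187 CPM in activated cells. Exosc8, a core subunit of the RNA exosome, had 10.8 CPM in quiescent, 6.56 CPM in 24 h, 37.3 CPM in 48 h and 45.3 CPM in activated cells. The order of their levels differed at the start: Ddx21 was higher at 24 h than in quiescent cells (interval of the ratio 1.15 to 1.70), while that of Exosc8 held 1 (0.344 to 1.04).

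At 24 h of exit the genes as a group stood where they were in quiescent cells. Their sum was 1743 CPM in 24 h against 1702 CPM in quiescent cells, a ratio of 1.02 (0.989 to 1.06) between cultures of the same plate. Of 42 genes with enough counts, none was higher by 1.5-fold and Nhp2 alone was lower, where 4.53% of all 10462 genes were higher and 6.28% lower. The median log2 ratio was 0.02, and 37 of all 43 counting intervals held 1. Ncl, Gnl3, Ebna1bp2 and Ddx21 had intervals above 1, and Nhp2 and Polr1c below it. Per spike-in count the sum was lower at 24 h, with a ratio of 0.742, since counts of all genes per spike-in count were also lower, at 0.725 of the quiescent value. Cells with less RNA and wells with less efficient capture cannot be told apart by this measure.

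After 48 h, 28 of 43 genes were higher than in quiescent cells by 1.5-fold (11.9% of all 10663 genes higher, 11.6% lower) and none was lower. The median log2 ratio was 0.69, against -0.02 over all genes. Nop58 had the highest ratio, 1.47 on the log2 scale, followed by Nop56 at 1.42, and Polr1c the lowest, 0.13. All 3 box C/D, all 4 box H/ACA and all 4 chaperone and phosphoprotein genes passed, as did 7 of 12 in small subunit and 6 of 12 in large subunit maturation and 2 of 6 of RNA polymerase I and its factors. The sum was 3462 CPM in 48 h against 1702 CPM in quiescent cells, a ratio of 2.03 (1.98 to 2.09), which covered 47.1% of the difference between quiescent and activated cells. Per gene this share ran between 10.7% for Polr1c and 84.3% for Npm3, with a median of 47.7%. These cultures were on different plates, and the comparison shares its quiescent cells with those of the activated and 24 h cultures.

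Set against 24 h cells, 26 of 43 genes were higher at 48 h by 1.5-fold (11.7% of all 10324 genes higher, 9.89% lower) and none was lower. Exosc8 had the highest log2 ratio, 1.51, with 37.3 CPM in 48 h against 6.56 CPM in 24 h cells, and Polr1e the lowest, 0.09, with 15.0 CPM in 48 h against 13.5 CPM in 24 h cells. Set against activated cells of the same plate, 12 of 43 genes were lower at 48 h by 1.5-fold (7.96% of all 10780 genes lower, 3.99% higher), none was higher, and the sum was 3462 CPM in 48 h against 5439 CPM in activated cells, a ratio of 0.637 (0.624 to 0.649). Gnl3, with 50.2 CPM in 48 h against 106 CPM in activated cells, and Rrp1b, with 17.2 CPM in 48 h against 42.4 CPM in activated cells, both had a log2 ratio of -0.94. Npm3, at -0.10, had nearly the same level in both.

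The fraction of cells in each phase differed between the cultures, and phases were set by the authors from scores of S, G2/M and G0 genes. Of the 48 h cells, 22 were called G0, 21 G1, 50 S and 58 G2M, while 146 of 174 quiescent and 138 of 151 24 h cells were called G0. Among G0 cells alone, 3 of 41 genes were past 1.5-fold between 48 h and quiescent cells, 1 higher and 2 lower, with a median log2 ratio of 0.14, against -0.14 over all genes, of which 6.42% were higher and 17.6% lower by that step. Between 48 h and 24 h G0 cells, 3 of 41 genes were higher and 1 lower, where 4.21% of all genes were higher and 14.2% lower. Between 24 h and quiescent G0 cells, 1 of 42 was lower and none higher, where 4.67% of all genes were higher and 6.43% lower. Among S and G2M cells alone, 19 of 42 genes were past it between 48 h and quiescent cells, all higher, with a median of 0.54, where 11.7% of all genes were higher and 13.8% lower. Between activated and quiescent S and G2M cells, 38 of 43 were past it, all higher, with a median of 1.02, where 18.8% of all genes were higher and 14.3% lower. Between 48 h and activated S and G2M cells, 12 of 43 were lower and none higher, where 7.77% of all genes were lower and 4.13% higher. The quiescent side of these comparisons of S and G2M cells rests on 11 S and 5 G2M cells. Both kinds of subset were looked at after the data were seen.

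Other genes of the pathway went the same way with smaller ratios. Of 142 further ribosome biogenesis genes in the table, 140 had enough counts between activated and quiescent cells. Of these, 82 were higher and none lower by 1.5-fold, where 19.8% of all genes were higher and 14.3% lower. Their median log2 ratio was 0.72. The highest were Lyar (89.5 CPM in activated against 14.5 CPM in quiescent cells), Ruvbl2 (138 against 32.8 CPM) and Wdr55 (57.8 against 11.4 CPM), and the lowest was Gnl3l (73.2 against 84.5 CPM). At 24 h 1 of 138 was higher than in quiescent cells, Taf1d at 42.7 CPM in 24 h against 17.0 CPM in quiescent cells, and 1 lower, Twistnb at 8.53 against 17.9 CPM. At 48 h 37 of 140 were higher and 1 lower than in quiescent cells, again with Lyar and Ruvbl2 the highest. Over all genes, 4.53% were higher and 6.28% lower at 24 h, and 11.9% were higher and 11.6% lower at 48 h.

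Among genes that host snoRNAs in their introns, 4 of 11 were higher by 1.5-fold in activated than in quiescent cells and none was lower. Over all genes, 19.8% were higher and 14.3% lower by that step. The 4 were led by Snhg5 (71.0 CPM in activated against 19.3 CPM in quiescent cells) and Snhg1 (125 against 48.4 CPM). Gas5, a host gene known to accumulate in arrested cells, had 128 CPM in quiescent, 117 CPM in 24 h, 122 CPM in 48 h and 196 CPM in activated cells, so its level was not higher in quiescence. In the MYC network, Myc had 7.06 CPM in quiescent, 21.0 CPM in 24 h, 18.4 CPM in 48 h and 24.4 CPM in activated cells. Its 24 h level was 2.98 times the quiescent level (1.93 to 4.65), at the time when the sum of the 43 genes was 1.02 times its quiescent level. Mycn had at most 1.52 CPM in any culture. Mxd4, an antagonist of MYC, had 15.8, 31.2, 12.4 and 10.2 CPM in quiescent, 24 h, 48 h and activated cells.

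Single cells showed how far the cultures overlapped. The 43 genes made up a median of 0.169% of a cell's count in quiescent cells (0.0694% to 0.429%), 0.158% in 24 h cells (0.0462% to 0.487%), 0.340% in 48 h cells (0.0644% to 0.764%) and 0.564% in activated cells (0.110% to 0.926%). No quiescent and no 24 h cell lay above the activated median, and 15 of 151 48 h cells did. Above the highest quiescent cell lay 133 of 164 activated, 43 of 151 48 h and 3 of 151 24 h cells. The coefficient of variation over cells was 30.8% in quiescent, 46.4% in 24 h, 41.6% in 48 h and 27.4% in activated cells, where counting error alone gives 16.7%, 18.3%, 11.3% and 7.67%. Within a culture, the Spearman correlation between a gene and the sum of the other 42 over cells had a median of 0.08 in quiescent, 0.20 in 24 h, 0.30 in 48 h and 0.22 in activated cells. Cells of a culture share a library, and low counts limit this value for all but the genes with the most counts.

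In every culture, the share of ribosome biogenesis genes was lower in the high than in the low autofluorescence gate. The medians over cells of the Low, Low-mid, Mid-high and High gates were 0.187%, 0.176%, 0.169% and 0.147% in quiescent cells and 0.198%, 0.188%, 0.131% and 0.132% in 24 h cells. They were 0.513%, 0.355%, 0.305% and 0.231% in 48 h cells and 0.665%, 0.609%, 0.547% and 0.458% in activated cells. The high gate's median was thus 0.786, 0.667, 0.450 and 0.689 of that of the low gate in quiescent, 24 h, 48 h and activated cells. The count per spike-in gave another picture: there the high gate stood at 1.45, 0.981, 0.751 and 1.46 of the low gate in the same order, because the count of all genes per spike-in was between 1.46 and 2.12 times as high in the high gate. A lower share in the high gate therefore went with more counts of these genes per spike-in in quiescent and activated cells, with fewer in 48 h cells, and with about as many in 24 h cells.

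**Figure D2:**
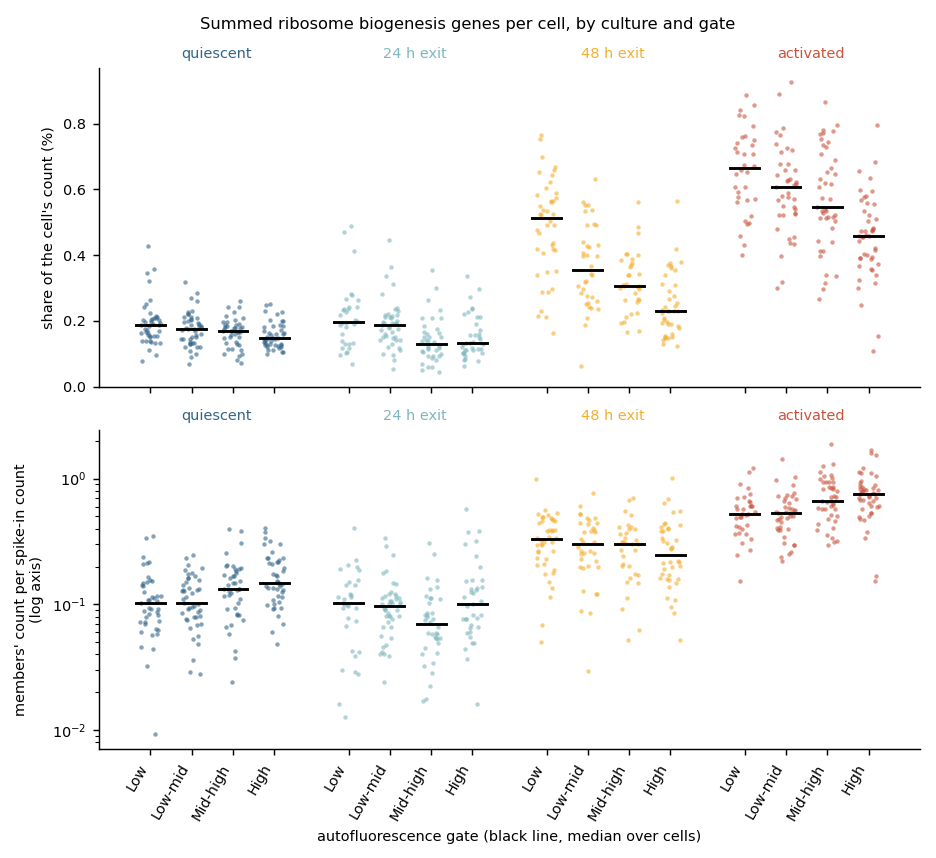
Summed ribosome biogenesis genes in each of the 640 cells by culture and autofluorescence gate, as a percent of the cell's count (top) and per spike-in count on a log axis (bottom), with medians as black lines. The median share is lower in the High than in the Low gate in each culture, 0.231% in the high against 0.513% in the low gate at 48 h, while the count per spike-in is higher in the high gate in quiescent and activated cells.

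The gate was tested over the 4 cultures with edgeR's quasi-likelihood test, with the culture as a block, over all 7792 genes with enough counts. Of 41 ribosome biogenesis genes tested, 7 fell in the high gate at a Benjamini-Hochberg adjusted p under 0.05 and none rose, where 0.744% of all genes fell and 2.12% rose. Polr1b and Rrp12 had too few counts. Of the 41, 40 had a negative log2 ratio, 22 had an unadjusted p under 0.05 (53.7%, against 16.9% of all genes), and the median was -0.48, against -0.01 over all genes. Nop56 had the lowest adjusted p of the 7, with 56.3 CPM in the high against 113 CPM in the low gate of quiescent cells, 66.0 against 104 CPM in 24 h, 149 against 335 CPM in 48 h and 285 against 439 CPM in activated cells. The fitted log2 ratio of Nop56 was -0.72 ± 0.13 (SE), with an edgeR adjusted p of 0.00531, and the high gate was lower in all 4 cultures.

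Npm1 had 443 CPM in the high against 555 CPM in the low gate of quiescent cells, 407 against 631 CPM in 24 h, 719 against 1401 CPM in 48 h and 1419 against 2140 CPM in activated cells, with a log2 ratio of -0.48 ± 0.13 and an edgeR adjusted p of 0.0477. Exosc8 had 6.38 against 15.5 CPM in quiescent, 2.28 against 9.96 CPM in 24 h, 29.7 against 61.8 CPM in 48 h and 31.5 against 64.0 CPM in activated cells (log2 ratio -0.97 ± 0.23, edgeR adjusted p 0.0294). Gnl3 had 18.6 against 28.5 CPM, 27.3 against 47.8 CPM, 29.7 against 80.5 CPM and 86.2 against 133 CPM in the same order (-0.73 ± 0.18, edgeR adjusted p 0.0350). All 3 were lower in the high gate of every culture. The other genes called were Ddx21 at -0.59, Ebna1bp2 at -0.58 and Npm3 at -1.05 on the log2 scale, with edgeR adjusted p between 0.0359 and 0.0479.

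The number of calls depended on which cultures entered. In the 48 h culture all 43 genes were lower in the high gate with a median log2 ratio of -0.76, against -0.32 in quiescent, -0.47 in 24 h and -0.38 in activated cells. Without the 48 h culture none of the 7 was called, with edgeR adjusted p between 0.112 for Nop56 and 0.354 for Ddx21 and Ebna1bp2, and calls over all genes were 19, against 223 with it. The log2 ratios of the 7 in that fit lay between -1.07 for Exosc8 and -0.39 for Npm1, with Nop56 at -0.63 and a median of -0.56, against a median of -0.72 with all 4 cultures. Without the activated culture Nop56 alone was called (0.0138), without the quiescent culture Nop56 (0.0167), Npm1 (0.0182) and Gnl3 (0.0397), and without the 24 h culture all but Npm1 (0.113) and Npm3 (0.0841), while Ddx18 (0.0221) was called in addition, which made 6. The log2 ratio of each of the 7 stayed negative in each of these fits. DESeq2 called Nop56 and Npm1 and gave no adjusted p for 38 of the 43, with 124 calls over all genes. A fit on total counts without TMM scaling called 14, with 342 calls over all genes.

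**Figure D3:**
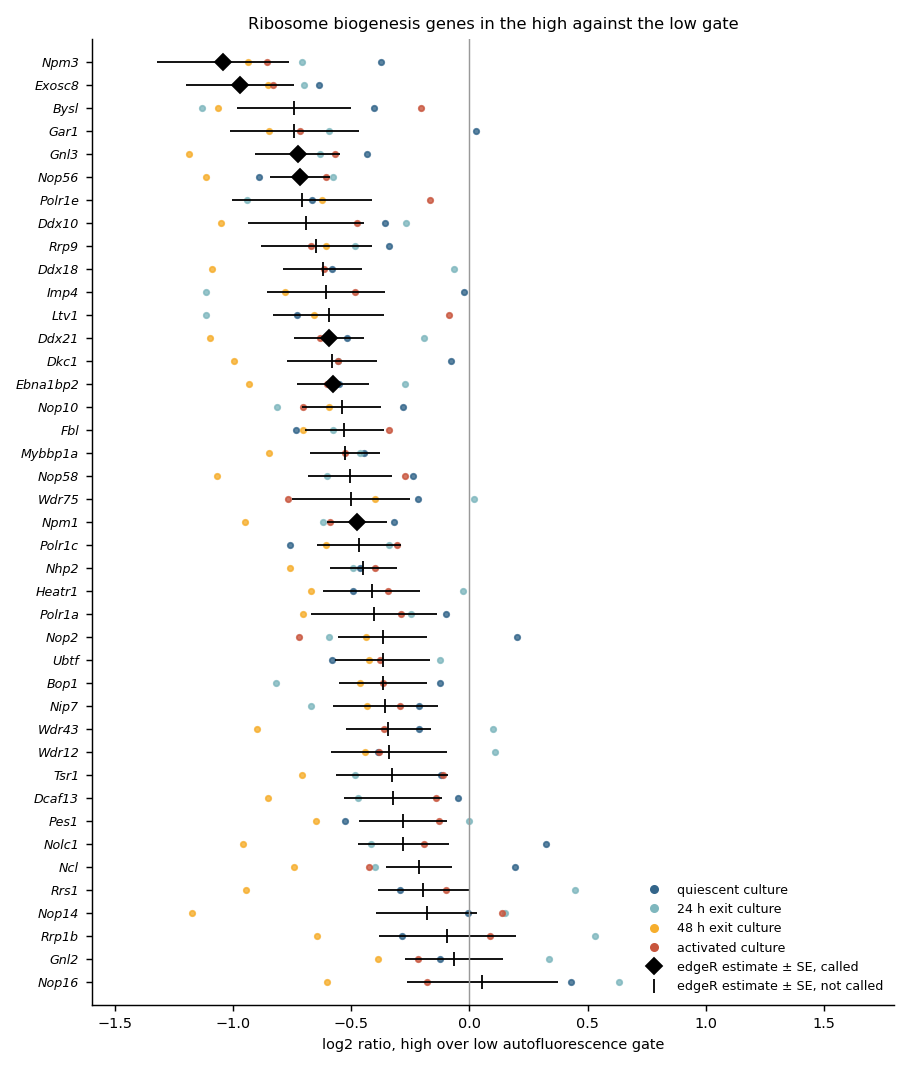
Log2 ratio of the high over the low autofluorescence gate for the 41 genes tested, ordered by the edgeR estimate (black, with SE; diamonds are called), with each culture's own ratio of CPM + 10 as a coloured point. Of the 41 estimates 40 lie left of 0, and the 48 h points reach furthest to the left for many genes, down to -1.19 for Gnl3.

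Beside the ribosome biogenesis genes, 12 markers from all cell type lists were tested, with a median log2 ratio of 0.21, 11 of them positive. Of the 12, 2 were called, where 2.12% of all genes rose. These were the astrocyte markers S100b and Slc1a2, which rose in the high gate (log2 ratios 1.20 and 0.86, edgeR adjusted p 0.00379 and 0.0338). The other 10 markers were not called, and the part of the markers in the result was not tested. Of 120 other pathway genes tested none passed, with a median log2 ratio of -0.25 and 24 (20.0%) with an unadjusted p under 0.05, near the 16.9% of all genes. Of 9 snoRNA host genes, 7 had an unadjusted p under 0.05 and Snhg4 fell (-0.96, edgeR adjusted p 0.0350). Phases were also spread unevenly over gates at 48 h, with 13 of 40 cells of the high and 0 of 42 of the low gate called G0. Among S and G2M cells alone, the median shares over Low to High gates were still 0.530%, 0.399%, 0.342% and 0.265% at 48 h and 0.665%, 0.623%, 0.617% and 0.473% in activated cells. The edgeR test on 137 such cells of 3 cultures called 0 of 41 genes and 60 genes in all, against 223 with all cells and cultures. All 41 log2 ratios were negative in that fit, with a median of -0.47, against -0.48 in the fit on all cells.

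The share of these genes differed between phases. In 48 h cells the median share was 0.174% in G0, 0.298% in G1, 0.394% in S and 0.341% in G2M cells, and in activated cells it was 0.398% in G1, 0.632% in S and 0.523% in G2M cells. The 146 quiescent G0 cells had a median of 0.160%, close to that of the 22 G0 cells at 48 h and of the 138 at 24 h (0.151%).

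**Figure D4:**
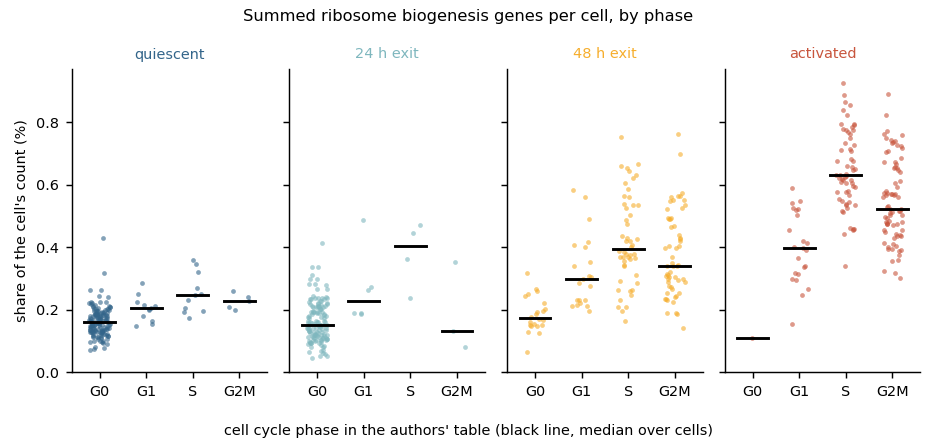
Summed ribosome biogenesis genes in each cell as a percent of the cell's count, by culture and by the phase in the authors' table, with medians as black lines. G0 cells have medians of 0.160%, 0.151% and 0.174% in quiescent, 24 h and 48 h cells, below those of S phase cells in each of these cultures.

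Between S and G1 cells, summed per culture and tested with edgeR over the 3 cultures with at least 10 cells in both phases, 7 of 41 genes rose in S phase and none fell, where 6.81% of all 7651 genes rose and 2.59% fell. The median log2 ratio was 0.34, against -0.03 over all genes. Nop56 had 180 CPM in S against 84.8 CPM in G1 cells of the quiescent culture, 291 against 119 CPM at 48 h and 453 against 231 CPM in the activated culture, with a log2 ratio of 1.04 ± 0.14 and an edgeR adjusted p of 5.71e-06. Npm1 had 865 CPM in S against 556 CPM in G1 cells of the quiescent culture, 1218 against 752 CPM at 48 h and 1968 against 1203 CPM in the activated culture (0.64 ± 0.10, edgeR adjusted p 5.94e-05). Both were higher in S in all 3 cultures and were called in each fit that left out 1 of them.

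Exosc8 rose by a log2 ratio of 1.46 ± 0.33, with 51.0 CPM in S against 13.8 CPM in G1 cells of the activated culture, 37.1 against 18.5 CPM at 48 h, and 18.3 against 7.70 CPM in the quiescent culture, the last from 5 and 2 counts. Nop58 (0.74), Nolc1 (0.74), Dkc1 (0.73) and Ncl (0.38) also rose, with edgeR adjusted p of 0.0107, 0.0120, 0.0251 and 0.0499. Of these, Nop58, Dkc1 and Ncl were lost without the 48 h culture (adjusted p of 0.192, 0.186 and 0.0767) and without the activated culture (0.174, 0.617 and 0.617), and Nolc1 without the activated culture (0.569), in which Exosc8 had too few counts to be tested. The quiescent culture differed from the other 2 in its median log2 ratio over the 43 genes, -0.02 against 0.22 at 48 h and 0.46 in activated cells, with 11 S and 12 G1 cells behind it. Genes called in both tests were Nop56, Npm1 and Exosc8. Phases were set from gene scores, and Polr1b belongs to a widely used list of S genes, but it was not tested. The lists the authors scored are not given in the sources used here.

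**Figure D5:**
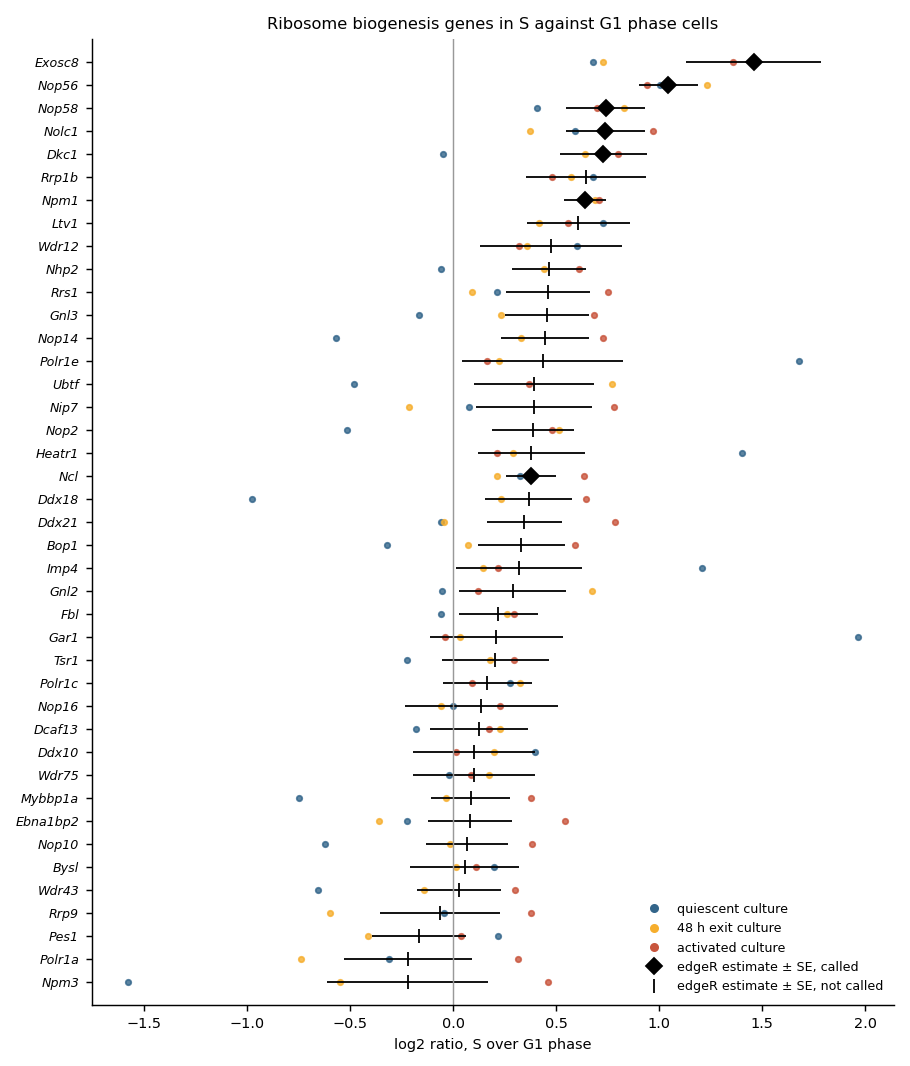
Log2 ratio of S over G1 phase for the 41 genes tested, ordered by the edgeR estimate (black, with SE; diamonds are called), with the ratio of CPM + 10 of each of the 3 cultures as a coloured point. Of the 41 estimates 37 lie right of 0, and the quiescent points, from 11 S and 12 G1 cells, scatter most.

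G2M against S and G1 against G0 cells were not tested and are given as values of the 2 cultures with at least 10 cells in both phases. In activated cells 37 of 43 genes had less CPM in G2M than in S, with a median log2 ratio of -0.26, and at 48 h 31 of 43, with a median of -0.11. G1 cells were above G0 cells for 37 of 43 genes at 48 h (median log2 ratio 0.60) and for 30 of 43 in the quiescent culture (0.19).

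The authors' 4 clusters followed the cultures, so their values are a description: 145 of 151 24 h cells were in cluster 0, 166 of 174 quiescent cells in cluster 1, 163 of 164 activated cells in cluster 2, and 109 of 151 48 h cells in cluster 3. The 41 48 h cells that shared cluster 0 with the 24 h cells had a median share of 0.223%, and the 109 in cluster 3 one of 0.388%, against 0.157% for the 24 h cells of cluster 0.

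Over cells within a culture, the share of ribosome biogenesis genes ran with that of ribosomal protein genes and against autofluorescence. The Spearman correlation with the ribosomal protein share was 0.51 in quiescent (n = 174), 0.67 in 24 h (n = 151), 0.82 in 48 h (n = 151) and 0.65 in activated cells (n = 164). With autofluorescence it was -0.24, -0.28, -0.62 and -0.49 in the same order, and with the authors' G0 score -0.37, -0.45, -0.70 and -0.39. With the mitochondrial share, which has the same total below the line, it was -0.43, -0.52, -0.51 and -0.42. These values describe cells of the same plate and culture that share a library, and both shares of a cell have its total count in common.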

How the data were processed

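The series measured RNA of single hippocampal neural stem cells of mice, sorted into 2 plates and made into SORT-seq libraries, 1 per plate, per the labels' protocols. BWA 0.7.15, R 4.2.0 and Seurat 4.1.1 and the builds hg19 and mm10 are named in the submitters' processing notes. The authors deposited expected counts, that is, numbers of distinct identifiers per gene, raised to allow for chance repeats among 4096 possible ones; with that step undone, they were whole to within 4.8e-05. The authors' per-cell table also gives, per the file headers, the percent of mitochondrial and ribosomal protein counts, the intensity of scatter and autofluorescence, a score for S, G2M and G0 genes, and phase, cluster, condition and gate. How the authors filtered cells or treated doublets is not given in the sources used here, and no doublet caller was run.

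Counts were summed per culture and divided by the sum's total (CPM). A 3′ tag count is 1 per molecule, so no gene length enters. Log2 ratios had 10 CPM added, so they understate low genes, and genes needed 20 counts over both cultures. Intervals are exact Poisson or conditional binomial (95%) and cover counting error only. Spike-in counts came from the plate tables. For gates and phases, sums per culture were rounded and entered into the quasi-likelihood test of edgeR 4.0.16 in R 4.3.3, filtered by filterByExpr and scaled by TMM, with a block for each culture and an adjusted p under 0.05 (Benjamini-Hochberg) as the threshold. The 4 cultures are of 4 states. With the culture as a block, differences in level between cultures do not enter the p-values. These rest on how the gate or phase ratio varied from culture to culture, with each gene's spread drawn toward that of all genes. The gate test had 3 residual degrees of freedom per gene and a median of 16.4 taken from the other genes. For S against G1 these were 2 and 24.3, so a p-value does not measure the gene's own spread alone. DESeq2 1.42.0 was an alternative. Other steps used scipy 1.17.1, pandas 2.3.3 and numpy 2.4.6 in Python 3.11.15, with figures by matplotlib 3.10.9.

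On simulated data the gate test recovered 50.8%, 80.3% and 100% of genes changed 1.5-, 2- and 4-fold, with 6 false calls among 7372 unchanged genes, and the S against G1 test 20.3%, 67.3% and 98.5%, with 3 among 7200. The members and lists were chosen with earlier results of these data known. All 43 members could be named: the text gives each culture's value for the 2 with the most counts in each role, for the extremes of each comparison and for those called, and for other lists up to 3 extremes in each direction. Thinning every cell to 12488 counts kept 576 cells and left out 64.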

Additional observations from a re-analysis of the deposited data

Results flagged for a closer look

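Over the 4 cultures, the log2 ratio of the high over the low gate was looked at for a culture that stood apart, by the gap to its nearest neighbour against the whole range (Dixon's 95% value for 4 samples). Of the 43 genes 2 met this, and chance gives about 1 in 20. Wdr12, of the PeBoW complex, stood at 0.11 in the 24 h culture, against -0.39 in quiescent, -0.44 in 48 h and -0.39 in activated cells. Nop14 stood at -1.17 in the 48 h culture, against -0.01 in quiescent, 0.15 in 24 h and 0.14 in activated cells. Neither gene was called in the gate test.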

How the results depend on the processing

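The median log2 ratio of the 43 genes kept its sign under each alternative in the comparisons of activated or 48 h cells. The 24 h median, 0.02, was -0.29 with spike-in scaling and lay between -0.04 and 0.12 otherwise. The numbers of members past 1.5-fold, or past the fold named, follow. For these alternatives the share of all genes was worked out only in the G0 and the S and G2M cells, where it is given above. Elsewhere the numbers cannot be set against it. Between activated and quiescent cells they ran between 28 (a fold of 2) and 43 (spike-in scaling), each within 1.5 times of 40. All were higher except in G1 cells, where 31 of 40 were higher and 1 was lower. Between 24 h and quiescent cells 1 of 42 with enough counts became 2 of 42 with 1 CPM added and 3 of 42 with spike-in scaling, all lower. It became 7 of 34 in the lowest gate (6 higher, 1 lower), 2 of 37 in the highest gate (both higher), and 0 when thinned or with a fold of 2. Between 48 h and quiescent cells 28 of 43 became 16 of 41 in the highest gate and 12 of 30 in G1 cells (11 higher, 1 lower). It became 6 of 43 with a fold of 2 and 3 of 41 in G0 cells (1 higher, 2 lower). Between 48 h and 24 h cells 26 of 43 became 41 of 43 with spike-in scaling and 17 of 40 in the highest gate. It became 9 of 43 with a fold of 2 and 4 of 41 in G0 cells (3 higher, 1 lower). Between 48 h and activated cells 12 of 43 became 19 of 43 with 1 CPM added and 36 of 43 with spike-in scaling. It became 4 of 42 in the lowest gate, 24 of 43 in the highest gate and 0 with a fold of 2. With spike-in scaling the median of all genes was 0.45 between activated and quiescent cells, -0.31 between 24 h and quiescent, 0.10 between 48 h and quiescent, 0.40 between 48 h and 24 h, and -0.36 between 48 h and activated cells.

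The 7 members called between gates became 14 on total counts, 2 with DESeq2, 0 without the replicate block (culture; 0 over all genes too), 3 when thinned, 13 with a linear trend over 4 gates, 0 in G1 cells (2 genes, 24 cells) and 0 in S and G2M cells, and 0 to 6 with a culture left out. Calls over all genes, 223 before, were 342 on total counts, 124 with DESeq2, 136 when thinned and 633 with the linear trend. They were 14 in G1 cells, 60 in S and G2M cells and 19 to 183 with a culture left out. The 7 called between S and G1 became 2 with DESeq2, 0 without the replicate block, 2 when thinned, and 2 to 9 with a culture left out. Calls over all genes moved too, from 719 to 224 with DESeq2, 168 without the block and 236 when thinned. They were 337 without the activated culture (2 members), 432 without the 48 h culture (4) and 1028 without the quiescent culture (9). The labels number both plates 1, which pairs no samples, so the block is the culture.

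Among single genes past 1.5-fold or called over all cells, the sign turned in subsets of phases and under no other alternative run. Genes short of that over all cells, as most were at 24 h, are not counted here. In G1 cells the log2 ratio of activated over quiescent was -0.074 for Nop10, -0.52 for Npm3 and -0.083 for Nip7, that of 48 h over quiescent -0.18 for Npm3, and that of the high over the low gate 0.053 for Npm1. In S and G2M cells Gar1 had -0.19 for activated and -0.32 for 48 h over quiescent. In G0 cells 48 h over quiescent was -0.025 for Nop10, -0.23 for Gar1, -0.26 for Wdr43, -0.25 for Ddx18, -0.51 for Polr1a and -0.50 for Bysl, and 48 h over 24 h was -0.24 for Gar1, -0.10 for Ebna1bp2, -0.27 for Ddx18 and -0.50 for Polr1a. None of these values in G0 cells reached 1.5-fold, so they are not the largest turns. Of the genes not counted here, Rrs1 had 22.4 CPM in 48 h against 44.7 CPM in quiescent G0 cells, while over all cells it was higher at 48 h. The G0 and the S and G2M subsets were chosen after seeing the data, and the cause was not tested. The 24 h culture had the lowest total count, which widens the intervals of genes with few counts there. No value could be had for 24 h against quiescent cells in G1, which had under 10 cells.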
